A study of Equus caballus with 22 samples.

Results

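The genes described here encode the matrix proteoglycans decorin (DCN) and lumican (LUM) and the cell surface receptors CD44 and integrin alpha 5 (ITGA5), measured in the lining of the equine uterus. The 4 genes were chosen with earlier results of these data known. Their probes were taken by name, not by how they behaved. Every probe of the array, other than control probes, whose transcript accession matched a horse RefSeq transcript of one of these 4 genes was included. This gave 9 of 43603 probes, on 13 of 43803 spots. LUM had 6 probes, one of them printed on 5 spots, while DCN, CD44 and ITGA5 had 1 probe each. All 9 probes passed the filter on dim probes and were well above background on 22 of 22 arrays, with no saturated and no outlying spot among them.

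The 22 one-colour arrays held total RNA of endometrial biopsies from warmblood mares. The groups were day 12 pregnant and day 12 non-pregnant control samples from 6 mares (mares 1 to 6), and day 8 pregnant and day 8 control samples from 5 mares (1, 2, 4, 5 and 6). Every mare gave a pregnant biopsy, taken once the embryo had been recovered, and a biopsy of the matching stage of a cycle without pregnancy, so that pregnancy was compared within mares. The tissue was that of a uterus from which the embryo had already been removed, and the labels do not say whether equal mare numbers of both days are the same animal.

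Decorin and lumican are small leucine-rich proteoglycans that fibroblasts secrete. Both bind collagen fibrils and govern how they assemble, and decorin also binds transforming growth factor beta. In the endometrium they belong to the stroma between glands and vessels. CD44 is the main receptor for hyaluronan, the large sugar polymer of loose connective tissue, and is carried by stromal, epithelial and immune cells. ITGA5 pairs with the integrin beta 1 chain to form the classical fibronectin receptor. In the RefSeq annotation of the horse assembly TB-T2T, LUM and DCN are next to each other on the same chromosome, with KERA, another proteoglycan gene of this family, on the other side of LUM.

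Levels are given on a log2 scale on which 0 is the 75th percentile of the spots of an array, control spots left out. Levels of different probes are not compared, because probes differ in how brightly they bind. The 75th percentile itself was 577 to 1863 intensity units per array, and 74.2% to 92.9% of spots were well above background. Raw intensities were 9830 to 34686 units for DCN, 1240 to 4618 for the 5-spot LUM probe, 318 to 1722 for CD44 and 19.0 to 56.7 for ITGA5. The ITGA5 probe was thus dim, though above background throughout. The changes of each mare were set against the mean of the other mares of that day, over 31038 probes well above background on every array. At day 12 mare 3 correlated at -0.154 with its companions, against 0.103 to 0.597 for each of the other 5 mares. At day 8 mare 4 stood at -0.135 and mare 1 at -0.028 by the same measure, against 0.127 to 0.265 in mares 2, 5 and 6. Results at day 12 are therefore also given without mare 3, and those at day 8 without mare 4 and without mare 1. Slides, scan days and the version of the scanner software were all different for the 2 days, and the days and these batches cannot be told apart. Both arrays of each mare lay on 1 slide.

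The matrix proteoglycan DCN did not pass the test for pregnancy on either day. At day 12 its level ran from 3.54 to 4.32 with a median of 4.17 in pregnant samples, against 3.58 to 4.15 with a median of 3.94 in control samples. At day 8 it was 4.62, 4.32, 4.46, 4.43 and 4.19 in pregnant samples of mares 1, 2, 4, 5 and 6, against 4.71, 3.77, 4.44, 4.17 and 3.83 in their control samples. The groups overlapped on both days, and the spread of the control group at day 8 came mainly from mares 2 and 6, which were low, and mares 1 and 4, which were high. Within mares, DCN was higher in pregnancy in 5 of 6 mares at day 12, with changes of 0.57, 0.31, -0.50, 0.34, 0.02 and 0.25 log2 in mares 1 to 6. Mare 3 was the exception. At day 8 it was higher in 4 of 5 mares, by up to 0.55 in mare 2, and mare 1 stood at -0.09.

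The mean pregnancy effect on DCN was 0.17 ± 0.13 log2 at day 12 (SE, n = 6 mares, 95% confidence interval -0.12 to 0.45, limma's adjusted p = 0.642). At day 8 it was 0.22 ± 0.14 (n = 5 mares, interval -0.09 to 0.53, limma's adjusted p = 0.866). These intervals hold no change as well as a rise of up to 0.45 and 0.53, so that a modest rise was not detectable with this number of arrays. Without mare 3 the day 12 effect was 0.30 ± 0.11 (limma's adjusted p = 0.164), and without mare 1 it was 0.087 ± 0.14 (limma's adjusted p = 0.883). The day 8 effect was 0.27 without mare 4 and 0.30 without mare 1 (limma's adjusted p = 0.740 and 0.745). Under normexp background correction, where the median over all probes was 0.34, DCN stood at -0.33 relative to that median. In bulk tissue, fewer cells of a type and less RNA per cell cannot be told apart, which holds for every value given here.

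**Figure D1:**
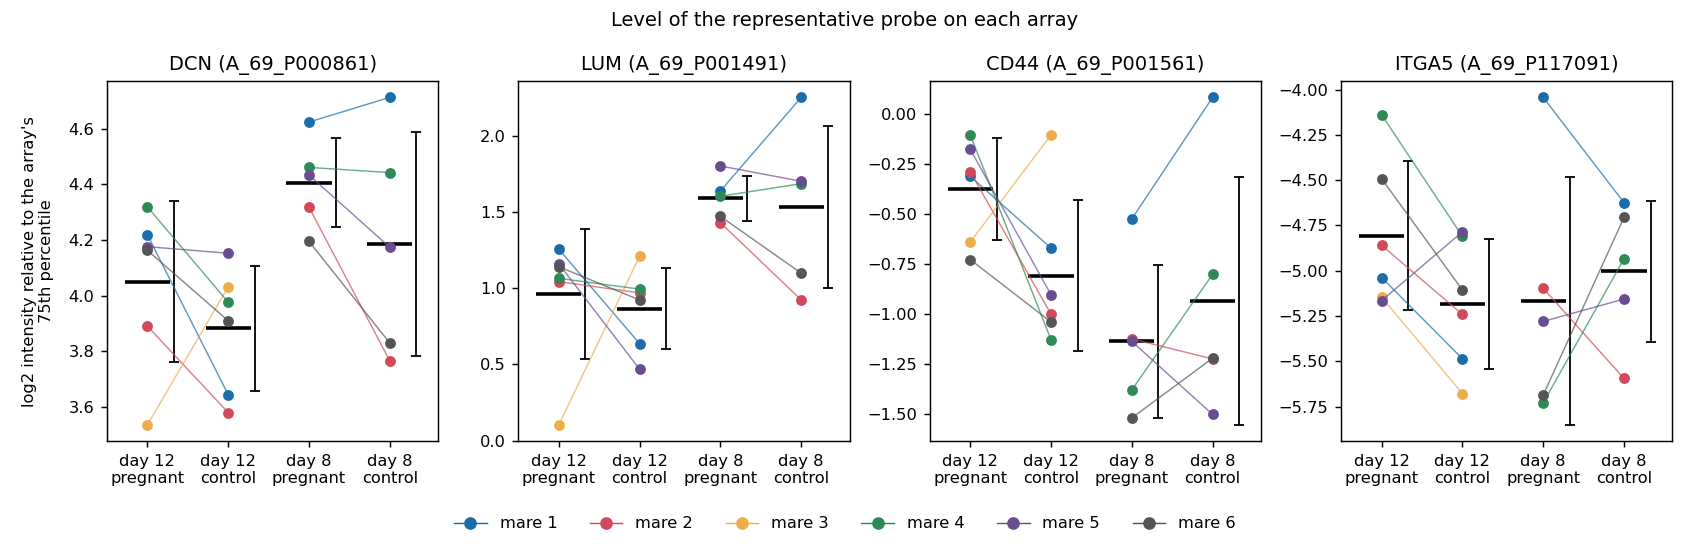
Level of the probe that stands for each gene on every array, as log2 intensity relative to the array's 75th percentile (y axis, a separate scale for each gene), in day 12 pregnant, day 12 control, day 8 pregnant and day 8 control samples (x axis). Points are arrays, thin lines join both arrays of a mare, thick bars are group means and whiskers 1 SD (n = 6, 6, 5 and 5); LUM of day 12 pregnant samples lies below all day 8 pregnant samples, and mare 3 is the lowest point at 0.10.

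The second proteoglycan, LUM, was likewise not past the threshold for pregnancy, and its mares diverged more. By its 5-spot probe (A_69_P001491) the level at day 12 ran from 0.10 to 1.26 with a median of 1.10 in pregnant samples, against 0.47 to 1.21 with a median of 0.95 in control samples. At day 8 the pregnant samples of mares 1, 2, 4, 5 and 6 had 1.64, 1.43, 1.60, 1.80 and 1.47, against 2.25, 0.92, 1.69, 1.70 and 1.10 in the control samples. Pregnant samples of day 8 lay close together inside the wide range of their controls. The within-mare changes at day 12 were 0.62, 0.07, -1.11, 0.07, 0.69 and 0.22 log2 in mares 1 to 6, so that 5 of 6 mares were higher in pregnancy and mare 3 was lower by the largest amount of any. At day 8 they were -0.61, 0.51, -0.08, 0.10 and 0.37, with 3 of 5 mares higher.

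The mean pregnancy effect of this probe was 0.09 ± 0.21 at day 12 (n = 6 mares, interval -0.37 to 0.56, limma's adjusted p = 0.891) and 0.06 ± 0.23 at day 8 (n = 5 mares, interval -0.45 to 0.56, limma's adjusted p = 0.990). Without mare 3 the effect at day 12 was 0.33 ± 0.16 (limma's adjusted p = 0.289). At day 8 it was 0.092 without mare 4 and 0.22 without mare 1 (limma's adjusted p = 0.971 and 0.904). The direction of these near-zero means turned at day 12 with normexp background correction (-0.063) and without mare 1 (-0.011) or mare 5 (-0.025), and at day 8 without mare 2 (-0.056) or mare 6 (-0.022).

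None of the other 5 LUM probes passed for pregnancy either. Their mean effects lay between 0.12 and 0.16 at day 12 (limma's adjusted p = 0.835 to 0.888) and between 0.11 and 0.18 at day 8 (limma's adjusted p = 0.957 to 0.982). In mare 3 at day 12 each of the 6 probes was lower in pregnancy, from -1.26 to -1.07, and in mare 1 at day 8 from -0.96 to -0.61. The sign in mare 4 depended on the probe. At day 12 mare 4 was above 0 by the 5-spot probe and by A_69_P004727 (0.071 and 0.078) and below 0 by the other 4 (-0.14 to -0.011), so that these 4 were higher in 4 of 6 mares. At day 8 mare 4 was below 0 by the 5-spot probe alone, and the other 5 probes (0.059 to 0.18) were higher in 4 of 5 mares. The 5 spots of the first probe differed on an array by an SD of 0.03 to 0.07 log2; they share labelling and hybridisation, and the biopsies were not repeated.

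Agreement between the LUM probes was closer for changes than for levels. Within-mare changes of the 5-spot probe correlated at 0.96 to 0.99 with those of the other 5 probes over 11 pairs, and levels at 0.81 to 0.89 over 22 arrays. Among the other 5 probes these values were 0.99 to 1.00 and 0.94 to 0.99. All probes read the same RNA on the same arrays, so these figures describe probes and not independent samples.

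The 5-spot probe and the others separated with the day of sampling. The gap between it and the mean of the other 5 averaged 2.18 ± 0.15 log2 in pregnant samples of day 12, against 2.51 ± 0.24 in those of day 8 (SD, n = 6 and 5). In control samples it averaged 2.22 ± 0.17 at day 12, against 2.60 ± 0.07 at day 8. The gap also varied between slides within a day, from 1.96 to 1.98 on slide 2 and from 2.26 to 2.43 on slide 4, both of day 12. Slide 4 held the dimmest arrays of day 12 (75th percentile of 636 to 744 units). The dimmest arrays of day 8 (577 and 633) had gaps of 2.68 and 2.92. The brightest arrays of day 12 (1849 and 1863) had gaps of 2.16 and 2.13, wider than on slide 2. The probes of this gene did not give one size for its difference between days, and the part of the batches and of array brightness in this was not tested.

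**Figure D2:**
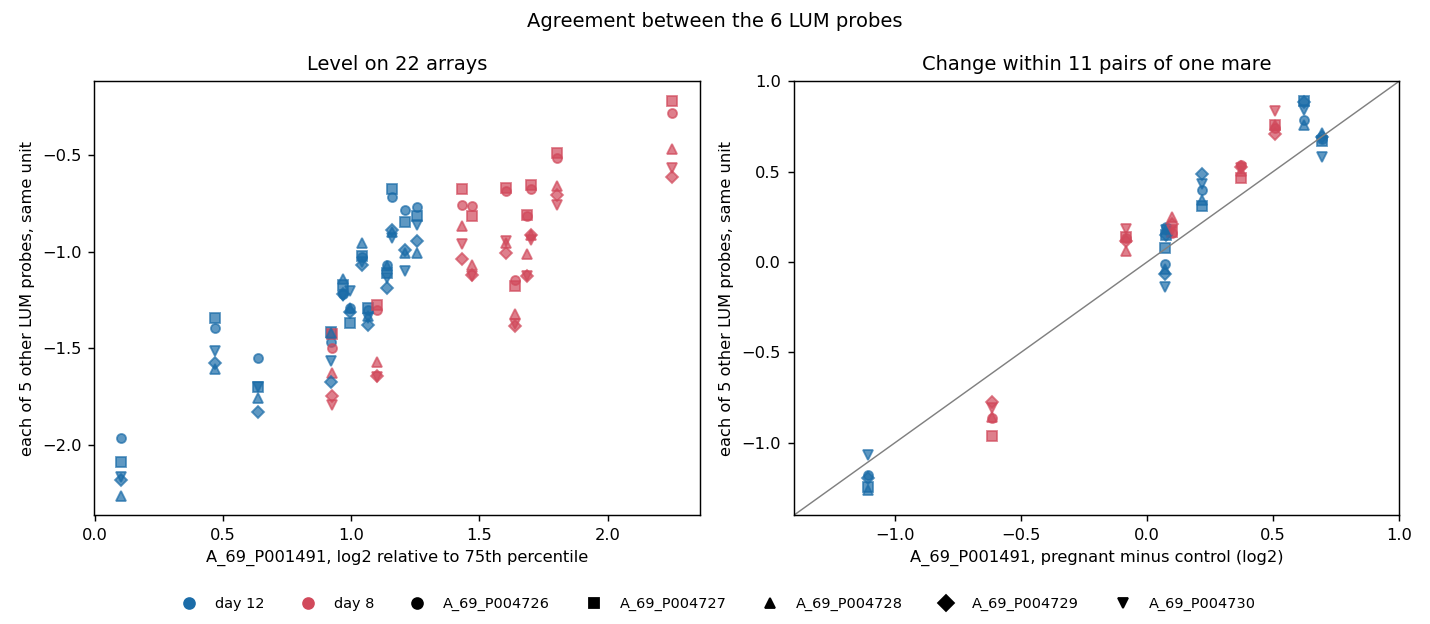
The 5-spot LUM probe (x axis) against each of the 5 other LUM probes (y axis, 1 symbol per probe), as log2 level on 22 arrays (left) and as pregnant minus control change within 11 pairs (right, grey line of equality), blue for day 12 and red for day 8. On the right the points follow the line with correlations of 0.96 to 0.99; on the left the day 8 arrays are shifted to the right of the day 12 arrays.

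CD44, the hyaluronan receptor, did not pass the test for pregnancy on either day, though its unadjusted p was under 0.05 at day 12. Its level at day 12 ran from -0.73 to -0.10 with a median of -0.30 in pregnant samples, against -1.13 to -0.10 with a median of -0.95 in control samples. At day 8 it was -0.52, -1.12, -1.38, -1.14 and -1.52 in pregnant samples of mares 1, 2, 4, 5 and 6, against 0.09, -1.22, -0.80, -1.50 and -1.22 in control samples. At day 12 the control samples of mares 1 and 3 lay within the range of the pregnant ones, and the other 4 controls lay below it. At day 8 mare 1 was high in both of its samples and the groups overlapped widely.

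Within mares the CD44 change at day 12 was 0.36, 0.71, -0.54, 1.03, 0.73 and 0.31 log2 in mares 1 to 6, higher in 5 of 6. The mean was 0.43 ± 0.19 (n = 6 mares, 1.35-fold, interval 0.02 to 0.85), with an unadjusted p of 0.0403 and an adjusted p of 0.373 in limma. At day 8 the changes were -0.61, 0.10, -0.58, 0.37 and -0.30, lower in 3 of 5 mares, with a mean of -0.20 ± 0.21 (n = 5 mares, interval -0.65 to 0.25, limma's adjusted p = 0.926). The effect at day 12 exceeded that at day 8 by 0.64 ± 0.28 (unadjusted p = 0.0418, limma's adjusted p = 0.462), which did not pass either. Without mare 3 the day 12 effect was 0.63 ± 0.16 (1.55-fold, limma's adjusted p = 0.0622). That was the highest value over 16 alternative settings, which ran from 0.32 to 0.63, and 0 of them passed. Mare 3 was set apart by these same data, and without it 977 of all 38457 probes passed, against 102 with it. The day 8 effect was -0.11 without mare 4, -0.10 without mare 1 and -0.35 without mare 5 (limma's adjusted p = 0.954, 0.965 and 0.904). By slide, the mean change at day 12 was 0.71, 0.73, -0.09 and 0.67 on the 4 slides, and mare 3 lay on the slide at -0.09.

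ITGA5, the fibronectin receptor chain, did not pass the test for pregnancy on either day. At day 12 its level ran from -5.16 to -4.14 with a median of -4.95 in pregnant samples, against -5.68 to -4.78 with a median of -5.17 in control samples. At day 8 it was -4.04, -5.10, -5.73, -5.28 and -5.69 in pregnant samples of mares 1, 2, 4, 5 and 6, against -4.62, -5.59, -4.93, -5.16 and -4.71 in control samples. The groups overlapped on both days, and the day 8 pregnant group was the most spread out, with an SD of 0.68.

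The change of ITGA5 at day 12 was 0.45, 0.38, 0.53, 0.67, -0.38 and 0.61 log2 in mares 1 to 6, higher in pregnancy in 5 of 6 mares. Here mare 5, and not mare 3, was the exception. The mean was 0.38 ± 0.21 (n = 6 mares, interval -0.08 to 0.84, limma's adjusted p = 0.502), and 0.35 ± 0.24 without mare 3 (limma's adjusted p = 0.470). At day 8 the changes of 0.58, 0.50, -0.80, -0.12 and -0.98 averaged -0.16 ± 0.23 (n = 5 mares, limma's adjusted p = 0.952). That mean was -0.0066 without mare 4, -0.35 without mare 1, -0.33 without mare 2 and 0.040 without mare 6 (limma's adjusted p = 0.997, 0.810, 1.0 and 1.0). The difference between the days was 0.54 ± 0.31 (limma's adjusted p = 0.558). The ITGA5 level, unlike that of the other 3 genes, moved with the brightness of the array: after subtracting each day's mean it correlated at -0.64 with the log2 75th percentile over 22 arrays (Spearman -0.47, and -0.54 without the 2 arrays of most extreme brightness), against -0.22 for DCN, -0.19 for LUM and -0.14 for CD44. The part of brightness in the ITGA5 changes was not tested; pregnant arrays were the brighter of their pair in 3 of 6 mares at day 12 and in 4 of 5 at day 8.

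**Figure D3:**
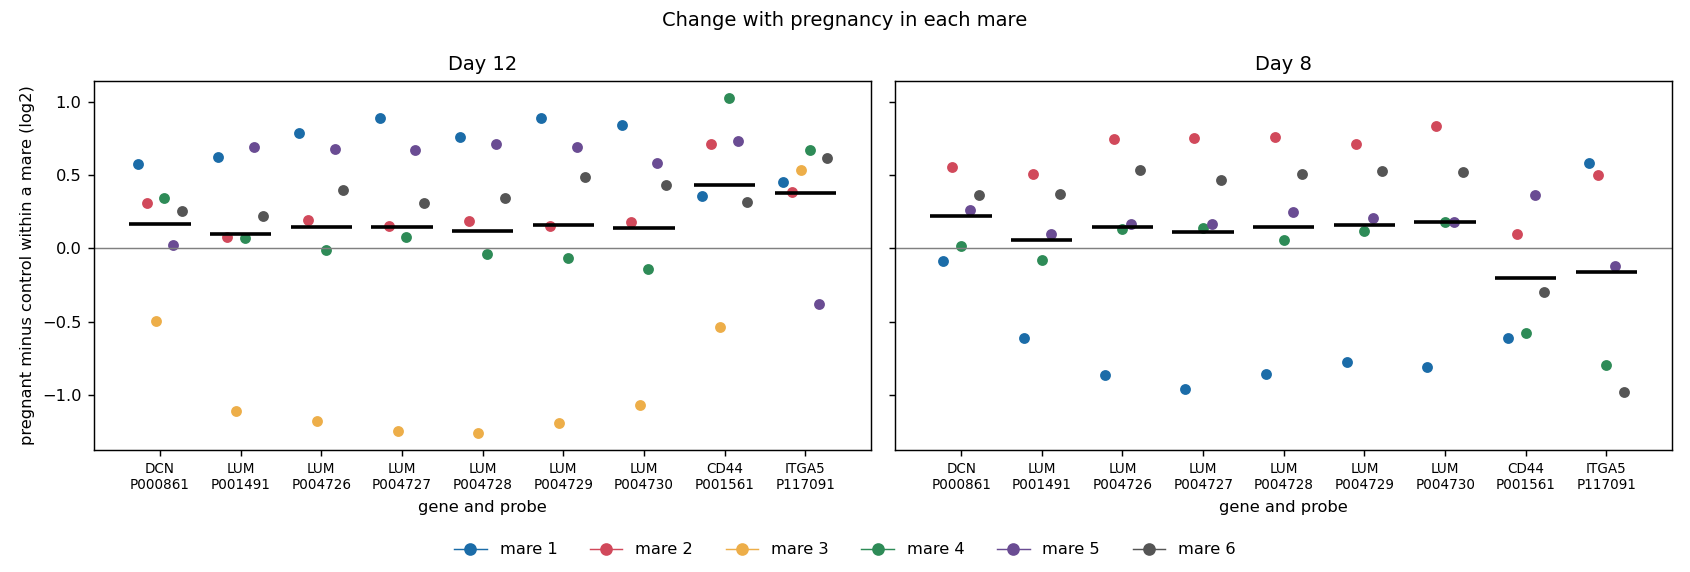
Pregnant minus control log2 change in each mare (y axis) for the 9 probes (x axis), at day 12 (left, 6 mares) and day 8 (right, 5 mares); colours are mares and black bars are means. Mare 3 at day 12 is below 0 for DCN, for all 6 LUM probes and for CD44 but above 0 for ITGA5, and mare 1 at day 8 shows the same pattern.

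Counted over the 9 probes, limma's adjusted test passed 0 for pregnancy at day 12, where 0.265% of all probes tested passed, and 0 at day 8, where 0% did. At an unadjusted p under 0.05 there was 1 of 9 at day 12 (CD44), against 12.5% of all probes, and 0 of 9 at day 8, against 5.83%. For the difference between the pregnancy effects 0 of 9 passed, against 0.0104% of all probes, and 1 had an unadjusted p under 0.05, again CD44, against 10.5%. The median effect of the 9 probes was 0.14 at day 12 and 0.14 at day 8, against -0.02 and -0.01 over all probes. Since 6 of the 9 probes read LUM, these counts do not stand for 9 genes. None of the 9 moved the same way in every mare on either day, as 5.96% of all probes did at day 12 and 8.27% at day 8.

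Between pregnant samples of the 2 days, CD44 was higher and the 5-spot LUM probe lower at day 12. These were 2 of 9 probes past the threshold, beside 24.3% of all probes. The days cannot be told apart from slides, scan days and software versions. CD44 averaged -0.37 ± 0.25 in day 12 pregnant samples, against -1.14 ± 0.38 in day 8 pregnant samples (SD, n = 6 and 5), a difference of 0.76 ± 0.19 log2 (SE, 1.70-fold, limma's adjusted p = 0.0164). Of the 6 day 12 samples, 4 lay above every day 8 sample. LUM averaged 0.96 ± 0.43 at day 12, against 1.59 ± 0.15 at day 8, a difference of -0.63 ± 0.20 (0.647-fold, limma's adjusted p = 0.0418). All 6 day 12 samples lay below all 5 day 8 samples by this probe; the groups did not overlap for 13.6% of all probes. The other 5 LUM probes did not pass, at -0.40 to -0.22 (limma's adjusted p = 0.236 to 0.511), and their groups overlapped.

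These 2 of 9 probes compare with 24.3% of all probes past the threshold between pregnant samples of the 2 days, 11.1% higher and 13.1% lower at day 12. At an unadjusted p under 0.05 there were 3 of 9 (DCN too), against 38.8% of all probes. DCN stood at -0.36 ± 0.16 (limma's adjusted p = 0.124) and ITGA5 at 0.36 ± 0.31 (limma's adjusted p = 0.411). The call for LUM was lost in 15 of 21 alternative settings, among them the mean over its probes (-0.35, limma's adjusted p = 0.272), and it held in 4 of 11 fits with 1 mare left out (limma's adjusted p = 0.0313 to 0.0950, lost without mare 2 or 4 of day 12 and without any of the day 8 mares). The call for CD44 held in 11 of 11 such fits and was lost in 3 of 21 alternatives: normexp background correction (limma's adjusted p = 0.155), the authors' value table (0.329) and scan day as a random block (0.0805). Its effect lay between 0.67 and 0.92 over the 21.

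In control samples none of the 9 probes passed between the days, where 7.1% of all probes did in limma's test; 1 of 9, the 5-spot LUM probe, had an unadjusted p under 0.05, against 26.4% of all probes. LUM averaged 0.87 ± 0.27 in day 12 controls, against 1.53 ± 0.53 in day 8 controls (SD, n = 6 and 5), a difference of -0.67 ± 0.24 (SE, limma's adjusted p = 0.110). DCN differed by -0.30 ± 0.20 (limma's adjusted p = 0.356), CD44 by 0.13 ± 0.29 (limma's adjusted p = 0.814) and ITGA5 by -0.18 ± 0.22 (limma's adjusted p = 0.645). The other 5 LUM probes stood at -0.43 to -0.17 (limma's adjusted p = 0.261 to 0.671). By the 5-spot LUM probe, pregnant samples and control samples gave differences of -0.63 and -0.67, and CD44 gave 0.76 and 0.13. That CD44 passed in one and not in the other is not a tested difference: the test of it is the difference of the pregnancy effects given above, which uses the same arrays and did not pass.

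**Figure D4:**
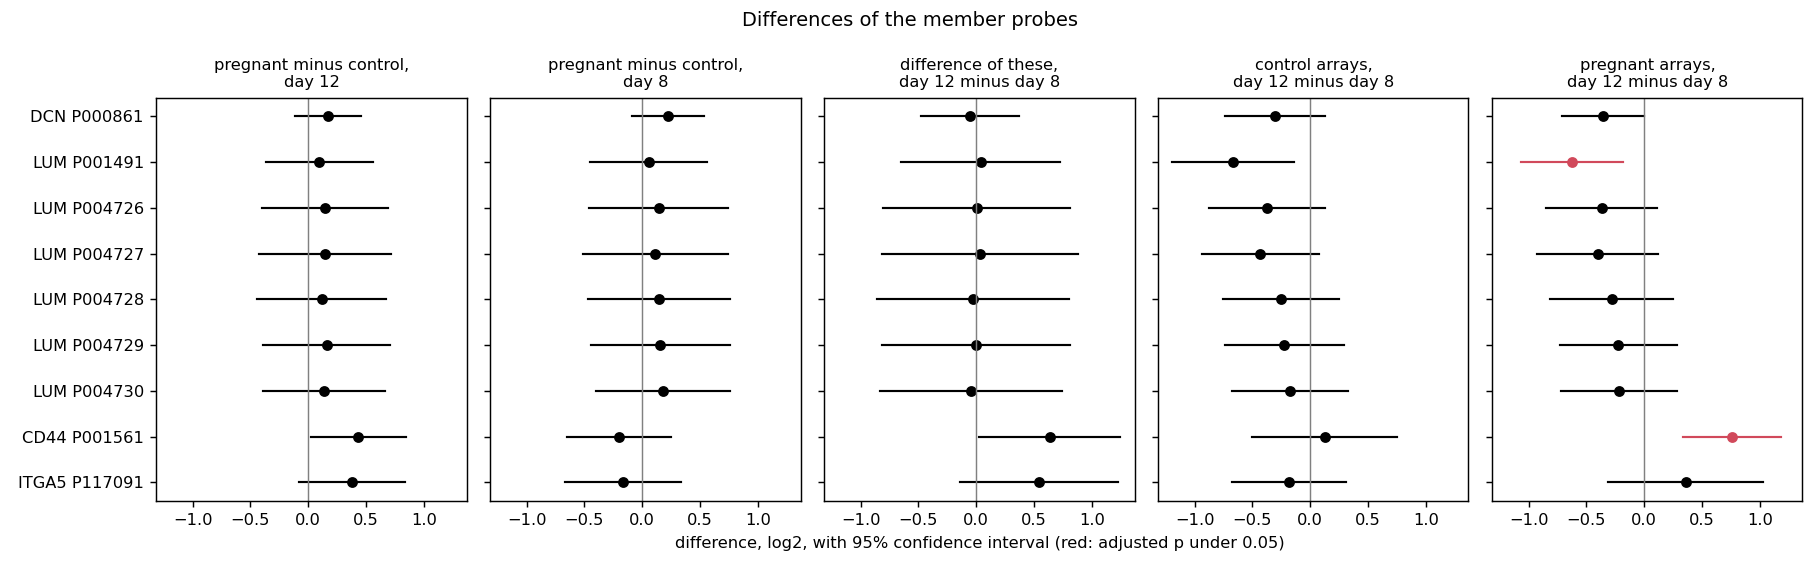
Differences of the 9 probes (rows) in 5 comparisons (panels), in log2 (x axis), with points for the estimate and lines for the 95% confidence interval from limma; red marks an adjusted p under 0.05. Only the 5-spot LUM probe (-0.63) and CD44 (0.76) between pregnant samples of day 12 and day 8 are red.

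In the order of the 4 group means, DCN and LUM were highest in day 8 pregnant samples, followed by day 8 controls, day 12 pregnant samples and day 12 controls. For DCN no step between neighbours in this order was larger than the larger SD of the 2 groups. By the 5-spot LUM probe only the step between the day 12 pregnant samples and the day 8 controls, 0.57 log2, was larger, against an SD of 0.53. The other 5 LUM probes kept this order of groups, with the same step at 0.034 to 0.29 against SDs of 0.48 to 0.52, so that none of their steps exceeded the spread. CD44 was highest in day 12 pregnant samples, then day 12 controls, day 8 controls and day 8 pregnant samples, and its first step (0.43 against an SD of 0.38) was the one larger than the spread. That step lies between samples of the same 6 mares, and the test within mares did not pass (limma's adjusted p = 0.373). ITGA5 was highest in day 12 pregnant samples and lowest in day 12 controls, with no step larger than the spread.

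DCN and LUM varied together across biopsies. After subtracting each day's mean their levels correlated at 0.74 over 22 arrays (Spearman 0.68, and 0.63 without the 2 arrays of most extreme DCN). Their within-mare changes correlated at 0.82 over 11 pairs (Spearman 0.65), but at 0.34 without the 2 pairs of most extreme DCN change, so that this second relation rests on those pairs. CD44 correlated at 0.55 with DCN and 0.50 with LUM in day-centred levels, and ITGA5 at 0.46 with DCN, 0.21 with LUM and 0.41 with CD44. These 6 relations share arrays, scaling and mares and are a description only.

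The named genes most like each member, by the same day-centred correlation over 22 arrays among 594 genes, included none from the list of matrix genes. Only 16 genes of that list were measured, so nothing is read from this absence. The genes most like DCN were LOC100053869 (0.72), the export transporter gene ABCC1 (0.68) and the monocyte marker CD14 (0.67). For LUM they were LOC100033916 (0.58), the secreted phospholipase PLA2G2A (0.53) and CPNE8 (0.52), a copine. CD44 came closest to LOC100052249 (0.79), the prion protein gene PRNP (0.76) and ABCC1 (0.75). ITGA5 came closest to OR2T1B (0.74), an olfactory receptor gene, to the sperm protamine gene PRM1 (0.72) and to ABCC1 (0.72). The median over all 594 genes lay between 0.01 and 0.04 for each member. The named values are the highest of 594 and a description only. For within-mare changes over 11 pairs the same relations ran from 0.08 (DCN with ABCC1) to 0.83 (CD44 with PRNP). The OR2T1B probe was dim like that of ITGA5 (mean level -5.47), and the part of array brightness in these relations was not tested.

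Other genes of the matrix and its remodelling were represented by 16 of 91 listed genes: 19 had a named probe, of which HAPLN1, MMP3 and MMP13 were too dim. At day 12, 11 were higher and 5 lower in pregnancy with a median of 0.08, against -0.02 over all probes. In limma's adjusted test 0 passed, beside 102 of all 38457 probes (0.265%). Without mare 3 there were 2, TIMP1 among them, beside 977 of all 38457 probes. Among the 3 highest were the metalloproteinase inhibitors TIMP1 (0.60 ± 0.15, limma's adjusted p = 0.117) and TIMP3 (0.34 ± 0.16, adjusted p = 0.423). The lowest were HAS2, a hyaluronan synthase that makes the ligand of CD44 (-0.16 ± 0.26), biglycan (BGN), a proteoglycan of the decorin family (-0.13 ± 0.13), and the cartilage collagen COL2A1 (-0.13 ± 0.18).

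At day 8, 7 of these 16 were higher and 9 lower with a median of -0.04, and 0 passed. The matrix glycoprotein SPARC stood highest (0.26 ± 0.12, limma's adjusted p = 0.833), before the collagen-binding proteoglycan fibromodulin, FMOD (0.23 ± 0.15), and TIMP3 (0.22 ± 0.18). Among the 3 lowest were the gelatinase MMP9 (-0.98 ± 0.55, limma's adjusted p = 0.858) and the collagenase MMP1 (-0.60 ± 0.49), which this probe found well above background on none of the 5 pregnant arrays and on 4 of 5 control arrays. For the difference of the pregnancy effects 0 of the 16 passed.

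Between pregnant samples of the 2 days, 2 matrix genes rose and 3 fell in limma's adjusted test, 5 of 16 beside 24.3% of all probes. Each value is that of the gene's brightest probe, of 5 for TIMP3 and of 3 for COL2A1. TIMP3 rose by 0.64 ± 0.20 (adjusted p = 0.0370). The fibrillar collagen COL5A2 stood at -0.93 ± 0.14 (adjusted p = 0.00153), COL2A1 at -1.32 ± 0.38 (adjusted p = 0.0268) and ADAMTS4, a protease that cleaves large proteoglycans, at -1.18 ± 0.23 (adjusted p = 0.00498). The other probe of ADAMTS4 pointed the other way (0.69), so the fall rests on 1 of its 2 probes. Between control samples ADAMTS4 was the one matrix gene past the threshold (-1.23 ± 0.27, limma's adjusted p = 0.0236, 1 of 2 probes), 1 of 16 beside 7.1% of all probes; this call was lost in 8 of 20 alternatives, among them leaving out mare 1 of day 12 or mare 5 or 6 of day 8. Between pregnant samples the count of 5 became 0 with normexp background correction, 1 with the authors' value table and 3 when scan day was a random block, where the calls over all probes were 388, 836 and 3433, against 9332. With normexp COL5A2, COL2A1 and ADAMTS4 stood above 0 (0.25, 0.14 and 0.10), below the median of 0.39 over all probes there, and TIMP3 passed in 7 of 20 alternatives. The list genes were put through these alternatives after their values had been seen.

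Adhesion receptors and their partners were represented by 10 of 62 listed genes; 11 had a named probe, and ITGB3 was too dim. At day 12, 9 were higher and 1 lower in pregnancy with a median of 0.19, and 1 of 10 passed limma's adjusted test, beside 0.265% of all probes. This was CDH13, a cadherin held in the membrane by a lipid anchor (1.07 ± 0.16, adjusted p = 0.0192, both probes past the threshold). Its effect lay between 0.88 and 1.2 in 15 alternatives, and it passed in 6 of them (limma's adjusted p = 0.00542 to 0.257); the call was lost without mare 1, 2, 4 or 6. Next came PECAM1, the junction protein of endothelial cells (0.44 ± 0.16, adjusted p = 0.305), and P-selectin, SELP (0.37 ± 0.11, adjusted p = 0.178). At the lower end stood the platelet integrin ITGA2B (-0.29 ± 0.08, adjusted p = 0.158), the vascular adhesion molecule VCAM1 (0.08 ± 0.18) and E-selectin, SELE (0.11 ± 0.21, measured above background in 4 of 6 pregnant samples and 5 of 6 controls).

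At day 8, 6 of these 10 were higher and 4 lower with a median of 0.09, and 0 passed limma's adjusted test. The integrin chain ITGA9 stood at 0.41 ± 0.31, CDH13 at 0.22 ± 0.18 and SELE at 0.17 ± 0.23. The lowest were SELP (-0.09 ± 0.12), ITGA2B (-0.07 ± 0.09) and the leukocyte adhesion ligand ALCAM (-0.06 ± 0.15). Between pregnant samples of the days CDH13 rose by 1.42 ± 0.20 (limma's adjusted p = 0.00127). By the brightest of its 3 probes PECAM1 rose by 0.92 ± 0.19 (limma's adjusted p = 0.00589). ITGA2B stood at -0.84 ± 0.14 (limma's adjusted p = 0.00283) and ITGA9 at -1.81 ± 0.37 (limma's adjusted p = 0.00630). These 4 of 10 stand beside 24.3% of all probes, and became 1 (CDH13) with normexp and 2 (CDH13 and ITGA9) with the authors' value table. Between control samples ITGA9 was past the threshold too (-1.56 ± 0.26, limma's adjusted p = 0.00998), 1 of 10 beside 7.1% of all probes, and this call was lost with the value table and with either scan day or mare numbers across days as a block.

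Of 6 further fibroblast markers listed beside DCN and LUM, none is named on this array, and no reading of stromal content apart from DCN and LUM was made. The epithelial marker ESRP1, 1 of 8 listed, stood at 0.00 ± 0.08 for pregnancy at day 12 and at -0.14 ± 0.16 between pregnant samples of the days (limma's adjusted p = 0.988 and 0.546). PECAM1, 1 of 5 endothelial markers, had a level of 1.42 to 2.85 multiples of the 75th percentile in day 12 pregnant samples, 0.91 to 2.10 in day 12 controls, 0.97 to 1.15 in day 8 pregnant samples and 0.80 to 1.22 in day 8 controls. TAGLN, 1 of 6 smooth muscle and pericyte markers, was at 0.37 to 0.79, 0.14 to 0.47, 0.21 to 0.50 and 0.19 to 0.48 multiples in the same order of groups, and rose between pregnant samples of the days by 0.84 ± 0.28 (limma's adjusted p = 0.0462).

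The leukocyte list had 6 of 15 markers measured (CD2, GZMB, CD14, CD68, LAPTM5 and ITGAX), none of them below background throughout a group. Their summed level ran from 11.4 to 30.0 multiples in day 12 pregnant samples, 11.8 to 27.1 in day 12 controls, 11.3 to 35.2 in day 8 pregnant samples and 11.6 to 22.1 in day 8 controls, with all 4 ranges overlapping. Brighter probes weigh more in this sum, so it is not read as leukocyte content. CD14 alone passed between pregnant samples of the days (1.01 ± 0.15, limma's adjusted p = 0.00183), and the other 5 leukocyte markers did not. Of the 6 markers, 3 were higher and 3 lower in that comparison, with a median of -0.06 and a lowest effect of -0.61. For pregnancy at day 12 TAGLN (0.90 ± 0.23), CD14 (0.51 ± 0.16) and PECAM1 did not pass limma's adjusted test. PECAM1, TAGLN and CD14 were thus higher between pregnant samples of the days, where CD44 was higher and 11.1% of all probes passed as higher. Their part in the CD44 result was not tested.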

How the data were processed

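Each array's scanner output holds spot intensities on a linear scale, made by the authors with Agilent Feature Extraction (10.5.1.1 for day 12 and 10.7.3.1 for day 8 arrays, per the file headers). Processed intensities were background-subtracted and spatially detrended, per the file headers, and were left unscaled across arrays. A value table deposited by the authors was read as log2 because it rose with the log2 scanner intensity. How it was centred and normalised is not given in the sources used here. Its medians per array ran from 7.47 to 8.83, so its arrays were not on one common level. It entered as an alternative without further scaling.

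From each log2 processed intensity the log2 75th percentile of the array's non-control spots was subtracted. Outlier spots were left out, spots of a probe were averaged, and 38457 of 43603 probes were kept, those well above background on 5 or more of 22 arrays. Symbols came from RefSeq genes of the assembly TB-T2T, which named 1394 probes (675 genes), by both versions of the array annotation. A gene stands by its probe of highest mean level.

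limma 3.58.1 in R 4.3.3 (two-sided) fitted all 22 arrays with a block for the mare in each day and 1 pregnancy effect per day. Days were compared in the 11 pregnant and the 11 control arrays without covariates. P-values were adjusted by Benjamini-Hochberg over all probes, with 0.05 as the threshold. The design states the pairing; same-mare arrays deviated together (correlations of 0.289 to 0.817 over 31038 probes), and each pregnant array correlated best with its own mare's control. The fitting code was tested on simulated data.

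Alternatives were normexp background correction, quantile normalisation, other filters, the mean over probes of an accession, the value table, a trended robust prior, other blocks, and leaving out each mare. The members and gene lists were chosen with earlier results of these data known. Beside the members, the text names per list and day the 3 highest and 3 lowest pregnancy effects, list genes past the threshold in any comparison, and for each member the 3 most correlated named genes; 1 list gene that meets this rule is counted but not reported here. Nothing states that biopsies were repeated, so the spread is that between mares, each with 1 biopsy per state. The number of arrays limits the precision.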

Additional observations from a re-analysis of the deposited data

Results flagged for a closer look

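In groups of 5 or 6 values, 54 sets of levels and changes of the 9 probes were screened for a lowest or highest value far from the others, which chance alone flags in about 1 of 20. There were 5 such values, 4 of them LUM in mare 3 at day 12. By the 5-spot probe its pregnant sample had a level of 0.10, against 1.04 to 1.26 in the other 5 mares, and its change was -1.11, against 0.07 to 0.69. By 2 further LUM probes its pregnant sample had levels of -2.26 (the others -1.33 to -0.90) and -2.17 (the others -1.34 to -0.86). These 4 values come from 1 mare. The levels read the same RNA, and the change rests on that RNA and on the control sample of this mare. The fifth was the ITGA5 change of mare 5 at day 12, -0.38, against 0.38 to 0.67 in the other mares; its pregnant and control arrays had 84.1% and 92.9% of spots well above background.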

How the results depend on the processing

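Over 20 results for the 4 genes and 372 alternative values, 338 kept their direction and their side of the threshold, 18 lost the call and 16 turned direction. None of the 9 probes passed for pregnancy at day 12, at day 8, for their difference or between control samples under any alternative, including no replicate block (CD44 0.43 at day 12). Between pregnant samples of day 12 and day 8 the count of 2 became 0 with normexp, the authors' value table or scan day as a random block. It became 1 with quantile normalisation, no filter, accessions averaged, slide as a random block or the replicate block of mare numbers across days, and 1 to 2 with 1 mare left out. The cause was not tested. The turned values were all near 0. LUM at day 12 was -0.063 with normexp and -0.025 to 0.33 with 1 mare left out (below 0 without mare 1 or 5), and at day 8 -0.056 to 0.22 (below 0 without mare 2 or 6). ITGA5 at day 8 was -0.35 to 0.040 with 1 mare left out (above 0 without mare 6). The difference of effects for DCN was -0.13 to 0.079 with 1 mare left out (above 0 without mare 3 of day 12 or mare 2 of day 8). For LUM it was -0.11 with normexp, -6.6e-05 with accessions averaged, and -0.13 to 0.28 with 1 mare left out (below 0 without mare 1 of either day or mare 5 of day 12). CD44 between control samples was -0.016 with the replicate block and -0.017 to 0.38 with 1 mare left out (below 0 without mare 3 of day 12 or mare 5 of day 8). Normexp moved the median of all probes to 0.34 at day 12 and 0.39 between pregnant samples of the days; relative to it DCN and LUM at day 12 stood at -0.33 and -0.40, CD44 at 0.09 and ITGA5 at 0.44, and between pregnant samples CD44 stood at 0.36 and LUM at -1.14. It used the spots' median signals, since the files used here hold no mean signals. The ITGA5 probe is dim, which limits its precision.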
